A study of Mus musculus and Homo sapiens with 34 samples.

Results

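The genes described here encode the proteins of the cytosolic ribosome. They were chosen by symbol alone: every gene whose symbol, in capitals, is RPL or RPS followed by a number with at most 1 of the letters A, X or L, by P0 to P2, or by A. The rule found 83 of 55450 genes in the mouse table and 81 of 58870 in the human table. In mouse, 43 belong to the large subunit, 30 to the small subunit, 3 to the stalk and 7 are paralogs or copies with an L suffix. In human the numbers are 43, 31, 3 and 4. When case is ignored, 80 symbols match between the species. A filter on low counts left 79 members for testing in CT26, 78 in MC38 and 78 in HT29. The mouse members left out in both mouse lines were Rpl3l, Rpl10l, Rps4l and Rpl32l, with Rpl39l also left out in MC38, and the human members left out were RPL3L, RPL10L and RPL39L.

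Polyadenylated RNA was sequenced from spheroids of CT26 and MC38, mouse colorectal carcinoma lines, and of HT29, a human colorectal carcinoma line. Spheroids were grown for 7 days in plates whose wells do not allow attachment, either as cells alone or with SIS ECM, a decellularised extracellular matrix, and 10 spheroids were pooled in each tube. There were 6 libraries of cells alone and 6 with SIS ECM for CT26 and for HT29. For MC38 there were 5 of each, with the numbers 1 to 5 for cells alone and 1, 3, 4, 5 and 6 for SIS ECM. All groups were day 7 cultures of an unmodified line, and each line is 1 line and not a set of tumours. Since no label states that libraries of a group are separate cultures, the p-values reflect library-to-library spread, possibly technical.

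The cytosolic ribosome reads messenger RNA on its small subunit and forms peptide bonds on its large subunit, and its stalk, built from RPLP0, RPLP1 and RPLP2, recruits the translation factors. Its proteins are needed in near equal numbers, so their genes are among the most highly expressed of any growing cell. Many of their messages begin with a C and a run of pyrimidines, the TOP sequence through which mTOR signalling controls their translation. Some members have further known roles: RPSA is also known as a precursor of the laminin receptor, RPL5 and RPL11 bind MDM2 when ribosome assembly is disturbed, and RPS6 is phosphorylated downstream of mTOR.

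Mouse sequences are shown for a few members, from GENCODE vM21 transcripts of the mm10 build. The first 60 coding bases are given for the members with the highest GC content over the transcript, Rpl36 and Rps10, and with the lowest, Rps20 and Rpl5. G and C are in capitals. Rpl36 lies at chr17:56613416-56614243 on the plus strand, with 36 of these 60 bases G or C and 60.8% over the whole transcript, the highest of all members. Rpl5 lies at chr5:107900502-107909005 on the plus strand, with 21 of 60 and 42.7%. Rps10 lies at chr17:27630418-27636669 on the minus strand, with 27 of 60 and 60.3%, and Rps20 at chr4:3831334-3835665 on the minus strand, with 31 of 60 and 41.3%. For Rps10 and Rps20 the bases shown thus go against the order of the whole transcripts. With SIS ECM in MC38, Rpl36 passed the test over all libraries and Rps10 did not, and in libraries 4 to 6 Rpl36, Rps10 and Rps20 fell and Rpl5 did not pass.
Rpl36: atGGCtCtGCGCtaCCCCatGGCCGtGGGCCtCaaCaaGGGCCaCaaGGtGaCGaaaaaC
Rps10: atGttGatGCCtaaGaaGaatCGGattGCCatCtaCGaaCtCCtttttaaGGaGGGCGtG
Rps20: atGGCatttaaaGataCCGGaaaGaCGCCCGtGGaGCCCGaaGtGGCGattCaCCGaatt
Rpl5: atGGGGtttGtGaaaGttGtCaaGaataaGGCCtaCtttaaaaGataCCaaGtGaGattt

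The TOP sequence at the start of the transcript is shown for Rpl36 (chr17:56613416-56613435, plus strand) and for Rps24, a small subunit protein (chr14:24490718-24490737, plus strand), with the starting C and its run of pyrimidines in capitals. Rps24 had the longest such run of all members.
Rpl36: CTTCCTgtcccggccgccat
Rps24: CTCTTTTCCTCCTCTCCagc
A C followed by at least 4 pyrimidines opened 10 of the 83 annotated mouse member transcripts (12.05%) and 2.24% of 21901 protein-coding transcripts. This count rests on the annotated starts, which can lie some bases away from the true start. Member transcripts were also short, with a median of 799 nt against 2488 nt over protein-coding genes, while their median GC content of 51.6% was close to 49.3%.

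The 60 promoter bases of Rplp2, a stalk member that fell in MC38, are shown from RefSeq (GRCm38.p6, chr7:141447517-141447576, plus strand), with the match to the ETS-type motif CCGGAAG, here on the minus strand, in capitals.
Rplp2: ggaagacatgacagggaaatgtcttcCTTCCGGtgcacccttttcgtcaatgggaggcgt
Among 61 members with a promoter window, 18 (29.5%) held CCGGAAG on either strand in the 250 bases before the start, as did 7.83% of 27025 genes. No other motif was searched. A match is a description of letters and not of binding. The GENCODE transcript of Rplp2 starts upstream of the bases shown, at chr7:141447370, so by that start they are not promoter bases.

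Library depth, in 1e6 counts, was 15.8 to 24.2 in mouse and 25.5 to 37.0 in human. HT29 expressed epithelial markers, with EPCAM between 534 and 556 counts per 1e6 counts (CPM, here of the library total, and for the members of the total scaled with TMM factors). The mouse lines largely lacked them: Epcam was at 0 in every mouse library, MC38 was also at 0 for Cdx2, Krt19 and Krt20, and CT26 held Krt20 at 35.8 to 56.8 CPM. The 7 leukocyte markers summed to 1.178 to 3.05 CPM in CT26 cells alone and 1.79 to 11.02 CPM with SIS ECM, and to 1.07 to 1.67 and 1.11 to 1.99 CPM in MC38, with Cd3e at 0 in every mouse library. In HT29 they summed to 1874 to 2038 CPM in cells alone and 1770 to 2040 CPM with SIS ECM, of which LYZ, a lysozyme also made by epithelial cells, held 1751 to 2020 CPM and CD68 18.5 to 24.1 CPM, and the other 5 had means below 1 CPM. The 11 epithelial markers summed to 48.7 to 60.1 CPM in CT26 cells alone and to 65.8 to 94.6 CPM with SIS ECM, without overlap. The 8 fibroblast markers summed to 3465 to 4704 CPM in MC38 cells alone and 2692 to 4167 CPM with SIS ECM, and to 481 to 801 and 402 to 734 CPM in CT26. The part of these markers in the results on ribosomal proteins was not tested. The mouse libraries differed by their number: those numbered 4 to 6 stood apart from those numbered 1 to 3 in both lines. The labels do not say what the numbers stand for, so the number range and anything else that differed with it cannot be told apart, and each mouse result is given for all libraries and within each range. SIS ECM library 3 of CT26 stood apart from SIS ECM libraries 1 and 2, and results that rest on it are given with and without it.

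Ribosomal protein genes took a substantial share of all counts, and that share followed the number range in both mouse lines. In CT26 cells alone it was 4.89, 5.04 and 5.39% in libraries 1 to 3 and 6.81, 6.78 and 7.23% in libraries 4 to 6. With SIS ECM it was 6.10, 6.43 and 5.18% and then 7.63, 7.95 and 7.82%. Within range 4 to 6 every CT26 SIS ECM library lay above every cells-alone library, and within range 1 to 3 library 3 fell among the controls. In MC38 cells alone the share was 4.49, 4.29 and 4.45% in libraries 1 to 3 and 5.65 and 6.11% in libraries 4 and 5. MC38 with SIS ECM held 3.94 and 4.46% in libraries 1 and 3 and 5.21, 5.11 and 5.05% in libraries 4 to 6. The order was thus turned in MC38, where all SIS ECM libraries of range 4 to 6 lay below both controls. HT29 cells alone ran from 8.01 to 9.16% with a median of 8.62%, and HT29 with SIS ECM from 7.503 to 9.07% with a median of 7.79%. The HT29 groups overlapped, since SIS ECM libraries 1 and 4 held 8.68 and 9.07%. In bulk RNA, fewer cells of a kind and less RNA per cell cannot be told apart.

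**Figure D1:**
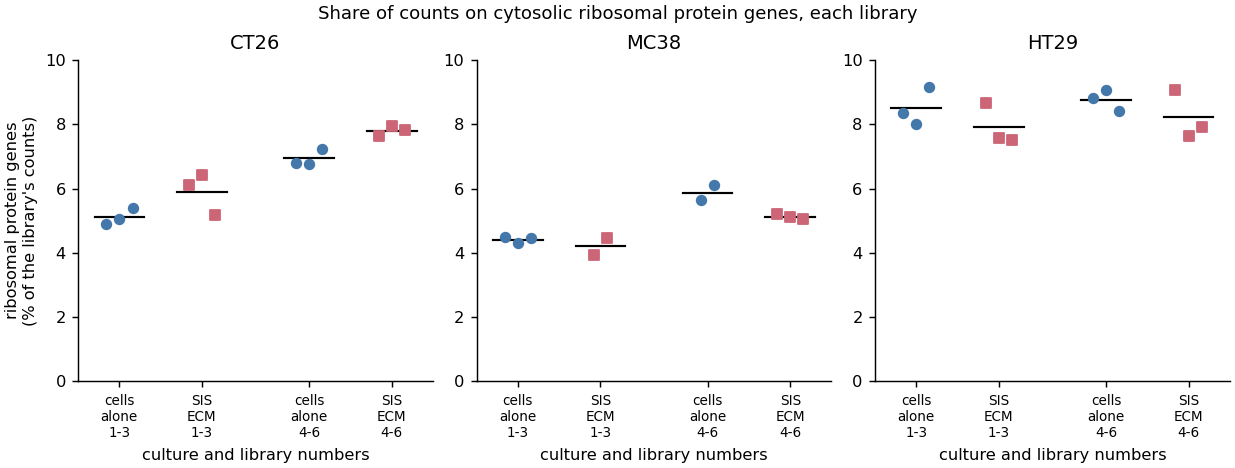
Share of each library's counts on cytosolic ribosomal protein genes (%), by line, culture and library numbers; each point is a library and lines are means. In range 4 to 6, SIS ECM libraries lie above cells alone in CT26 (7.63 to 7.95% against 6.78 to 7.23%) and below them in MC38 (5.05 to 5.21% against 5.65 and 6.11%).

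The mitochondrially encoded genes moved with the number range as well. Their share was 3.59 to 4.87% in CT26 libraries 1 to 3 and 7.34 to 8.23% in libraries 4 to 6, and 3.32 to 4.80% and 5.56 to 7.04% in MC38. In HT29 the SIS ECM libraries 1 and 4, those with the most ribosomal protein counts, held 5.18 and 5.27% and the other SIS ECM libraries 4.12 to 4.52%. The part of this difference in the results on ribosomal proteins was not tested.

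Within each line the members spanned a wide range of levels. Per kilobase of annotated transcript, and as means over libraries, the most abundant in CT26 were Rps4x at 3370 CPM, a small subunit protein encoded on the X chromosome, Rpl32 at 2809 and Rpl9 at 2742. In MC38 they were Rps27a at 2352 CPM per kilobase, a fusion of ubiquitin with a small subunit protein, Rps4x at 1829 and Rps6 at 1736. HT29 was ordered by CPM alone, since human transcript lengths were not used here: RPL13A stood at 3170 CPM, RPL4 at 2751 and RPLP0 at 2537, and the paralog RPS27L was the lowest of those tested at 37.0.

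In CT26, members leaned higher with SIS ECM, but none passed the test over all libraries. The median log2 fold change of 79 members was 0.18, against 0.01 over all 12269 genes tested, and 76 of 79 were positive. With edgeR's quasi-likelihood test and Benjamini-Hochberg adjustment, 0 members passed 0.05, where 9.25% of all genes did (6.15% higher, 3.1% lower). At an unadjusted p under 0.05 there were 7 members, DESeq2 called 0 (13.4% of all genes) and limma-voom 1 (8.84%). No member had all 6 SIS ECM libraries above or below all 6 of cells alone, which 4.12% and 2.83% of all genes did. The large subunit had a median of 0.20, the small subunit 0.18, the stalk 0.35 and the paralogs -0.09.

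More members passed once the number range or the replicate number entered the model. With the replicate number as a block, 19 members rose and 0 fell, and 18.6% of all genes passed. With a term for the number range, 34 rose and 1 fell, and 28.9% of all genes passed. Rpl39, a small protein at the end of the tunnel through which the new peptide leaves, then gave 0.65 on the log2 scale (adjusted p = 0.000191 with the block in edgeR).

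Within CT26 libraries 4 to 6, 40 of 79 members rose with SIS ECM and 0 fell in edgeR's test, where 11.1% of all genes rose and 7.84% fell, and 19% changed in either direction. The median member change was 0.17 on the log2 scale and the median of all genes was at 0 to 2 decimals. The large subunit contributed 26 of 43, with a median of 0.19, and the small subunit 14 of 30, with a median of 0.16. None of the 3 stalk genes and none of the 3 tested paralogs passed. Every SIS ECM library lay above every control for 47 members and below for 0, as for 18.6% and 17.0% of all genes.

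Among large subunit genes, Rpl39 stood at 841, 812 and 835 CPM in cells alone and 1533, 1414 and 1344 CPM with SIS ECM. All SIS ECM values were the higher, and the log2 fold change was 0.79 ± 0.05 (SE; adjusted p = 1.21e-09, edgeR). Rpl5 rose from 675, 663 and 680 CPM to 965, 958 and 775 CPM, a log2 fold change of 0.42 ± 0.06 (adjusted p = 9.12e-05, edgeR), without overlap. Its partner in MDM2 binding, Rpl11, stood at 634, 663 and 694 CPM against 693, 732 and 708 CPM, overlapped by 1 library and did not pass (0.10 ± 0.05, adjusted p = 0.154 in edgeR). Rpl10, which helps to join the subunits, rose by 0.34 ± 0.05 and Rpl3, which lies near the peptidyl transferase centre, by 0.27 ± 0.05 on the log2 scale. Rpl22, an RNA-binding protein dispensable for most translation, rose from 483, 480 and 510 CPM to 613, 601 and 587 CPM (0.29 ± 0.04). Rpl13a, known also from the repression of inflammatory messages, did not pass (0.06 ± 0.05).

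Among small subunit genes, Rps27 rose from 785, 782 and 794 CPM to 1015, 1006 and 943 CPM, a log2 fold change of 0.33 ± 0.05 (adjusted p = 4.06e-05, edgeR). The groups did not overlap. Rps4x rose from 3686, 3622 and 3631 CPM to 4686, 4130 and 4176 CPM (0.25 ± 0.06), Rps28 by 0.27 ± 0.05, Rps6 by 0.21 ± 0.05 and Rps19, the gene most often mutated in Diamond-Blackfan anaemia, by 0.19 ± 0.05. Rpsa stood higher in every SIS ECM library (2696, 2637 and 2756 CPM against 2397, 2392 and 2529 CPM) but missed the threshold at 0.15 ± 0.05 (adjusted p = 0.0551, edgeR). Rps3, which lines the entry of the messenger RNA channel, overlapped between the cultures (0.10 ± 0.05).

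Within CT26 libraries 1 to 3, the median member change was again 0.18, but far fewer members passed. In edgeR's test 4 rose and 2 fell, against 9.92% of all genes higher and 10.1% lower (20% in either direction). Those that rose were Rpl39, Rpl22, Rps27 and Rps28. All 4 were also among the 40 of range 4 to 6, so they make up 100% of the shorter list and 10% of the longer. In range 4 to 6, 40 of all 79 tested members rose. Rpl39 rose from 478, 484 and 459 CPM to 641, 640 and 740 CPM (0.50 ± 0.07, adjusted p = 0.003 in edgeR). The 2 that fell were paralogs: Rpl39l, the germ-cell-enriched copy of Rpl39, went from 127, 128 and 121 CPM to 102, 97.9 and 105 CPM (-0.31 ± 0.06), and Rps27l, a p53-responsive copy of Rps27, from 116, 117 and 105 CPM to 89.5, 91.9 and 105 CPM (-0.25 ± 0.07). In this fit each parent gene thus rose where its paralog fell. With the replicate number as a block, only Rpl39 of these genes passed (adjusted p = 0.0447 in edgeR), and in libraries 4 to 6 neither paralog did. Groups did not overlap for 13 members higher and 6 lower, as for 18.2% and 21.2% of all genes.

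Library 3 of the CT26 SIS ECM culture lay with the controls for many members of this range. Rpl36 stood at 11.3, 14.4 and 22.1 CPM in cells alone and 36.6, 43.2 and 12.1 CPM with SIS ECM, so that libraries 1 and 2 were above and library 3 among the controls (0.95 ± 0.42, adjusted p = 0.142 in edgeR). The stalk genes followed this pattern. Rplp1 stood at 95.1, 103 and 139 CPM against 219, 260 and 102 CPM, and Rplp2 at 45.3, 51.7 and 64.8 CPM against 86.9, 95.5 and 52.1 CPM. Without library 3, 52 members rose and 2 fell in range 1 to 3, where 43.7% of all genes passed, and the member median was 0.25. With the replicate block, 1 member rose and 0 fell in this range (4.07% of all genes passed).

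In MC38, 2 members fell with SIS ECM over all libraries and none rose: Rpl36 and the stalk gene Rplp2. The median of 78 members was -0.06 against 0.01 over 13146 genes, and 23 were positive. Cells alone held 3 libraries of range 1 to 3 and 2 of range 4 to 6, and SIS ECM held 2 and 3. Culture and number range are thus partly mixed in this fit, which has no term for the range, and members stood higher in range 4 to 6 (below). In edgeR's test 9.17% of all genes passed (3.82% higher, 5.36% lower), so the share of members was below that of all genes. Rpl36, a large subunit protein, stood at 26.7, 26.3, 24.1, 35.3 and 54.2 CPM in cells alone and at 13.6, 17.6, 23.5, 23.9 and 20.9 CPM with SIS ECM. It was the 1 member whose groups did not overlap, as was seen for 5.26% of all genes in this direction, and it fell by 0.74 ± 0.22 on the log2 scale (adjusted p = 0.0489, edgeR). Rplp2 stood at 83.8, 69.1, 68.5, 85.5 and 98.7 CPM against 54.0, 62.1, 65.9, 71.0 and 63.2 CPM, overlapped, and fell by 0.36 ± 0.10 (adjusted p = 0.0467, edgeR). Both calls are close to the threshold: leaving out 1 library at a time, Rpl36 kept an adjusted p below 0.05 in 1 of 10 fits (0.0474 to 0.0892) and Rplp2 in 3 of 10 (0.0407 to 0.107). With the replicate block, for which cells-alone library 2 and SIS ECM library 6 have no partner and drop out, 17 members fell and 0 rose (9.01% of all genes passed), and with a term for the number range 27 fell and 0 rose (24.7%).

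Within MC38 libraries 4 to 6, comparing 2 libraries of cells alone with 3 of SIS ECM, 54 of 78 members fell and 0 rose in edgeR's test, where 17.1% of all genes passed (8.48% lower, 8.65% higher). All 78 log2 fold changes were negative, with a median of -0.24 while all genes were at 0 to 2 decimals. The large subunit gave 28 of 43 (median -0.23), the small subunit 22 of 30 (-0.25) and the stalk 3 of 3 (-0.47). For 73 members all SIS ECM libraries lay below both controls, as for 23.8% of all genes. With the replicate block the count that fell was 31 (10.1% of all genes passed).

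All 3 stalk genes fell. Rplp1 stood at 250 and 327 CPM in cells alone and 170, 191 and 161 CPM with SIS ECM, a log2 fold change of -0.74 ± 0.09 (adjusted p = 4.29e-05, edgeR). Rplp2 fell by 0.47 ± 0.07, and Rplp0, the scaffold of the stalk, from 1838 and 2215 CPM to 1516, 1491 and 1424 CPM (-0.46 ± 0.08). Their groups did not overlap. Rpl36 fell from 35.3 and 54.2 CPM to 23.5, 23.9 and 20.9 CPM, the largest change of any member here (-0.98 ± 0.13, adjusted p = 9.08e-05 in edgeR). Rpl18, also of the large subunit, fell by 0.52 ± 0.06, Rpl13a by 0.31 ± 0.06, Rpl11 by 0.28 ± 0.06, Rpl10 by 0.23 ± 0.06, Rpl3 by 0.23 ± 0.07 and Rpl22 by 0.20 ± 0.05 on the log2 scale.

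Among the 22 small subunit members that fell was Rps29, a small zinc-binding protein, which went from 162 and 183 CPM to 104, 112 and 98.5 CPM (-0.72 ± 0.06, adjusted p = 1.92e-06 in edgeR). Rps15 fell by 0.54 ± 0.06, Rps28 by 0.41 ± 0.06, Rps19 by 0.26 ± 0.06 and Rps6 by 0.25 ± 0.06. Among those that missed the threshold were Rpsa (-0.18 ± 0.07, adjusted p = 0.0694), Rps3 (-0.17 ± 0.06, 0.0714), Rps27 (-0.17 ± 0.06, 0.0529) and Rpl5 (-0.14 ± 0.06, 0.153), all from edgeR. Rpl39, which rose most in CT26, stood at 441 and 372 CPM against 375, 363 and 344 CPM, overlapped and did not pass (-0.17 ± 0.07). Rps27l fell by 0.16 ± 0.05. Across lines, 24 members rose in CT26 range 4 to 6 and fell in MC38 range 4 to 6. They are 60% of the 40, beside 69.2% of all tested members that fell in MC38, and 44.4% of the 54, beside 50.6% of all tested members that rose in CT26.

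Within MC38 libraries 1 to 3, comparing 3 libraries with 2, members split: 20 fell and 4 rose, against 20.4% and 19.3% of all genes (39.7% in either direction), with a median of -0.03. Groups did not overlap for 20 members lower and 4 higher, as for 31.2% and 29.2% of all genes. The stalk again fell in full, with Rplp1 going from 155, 152 and 154 CPM to 111 and 130 CPM (-0.36 ± 0.06, adjusted p = 3.53e-05 in edgeR), Rplp2 by -0.36 ± 0.08 and Rplp0 by -0.21 ± 0.05. Rpl36 fell from 26.7, 26.3 and 24.1 CPM to 13.6 and 17.6 CPM (-0.73 ± 0.09, adjusted p = 2.37e-06 in edgeR). All 20 that fell were among the 54 of range 4 to 6, 100% of the shorter list and 37% of the longer, where 54 of all 78 tested members fell in range 4 to 6. The 4 that rose were Rps27l (0.24 ± 0.05), Rpl30 (0.16), Rpl27a (0.15) and Rpl6l (0.94 ± 0.32), a copy annotated as a pseudogene and present at 0.436 to 1.75 CPM in these libraries. Rpl5 (-0.03), Rps19 (-0.04) and Rps6 (-0.05) did not pass, nor did Rpl11, Rps3 and Rpsa, whose fold changes were at 0 to 2 decimals. Without SIS ECM library 1 the split turned, with 21 members higher and 8 lower and a median of 0.07 (28% of all genes passed).

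**Figure D2:**
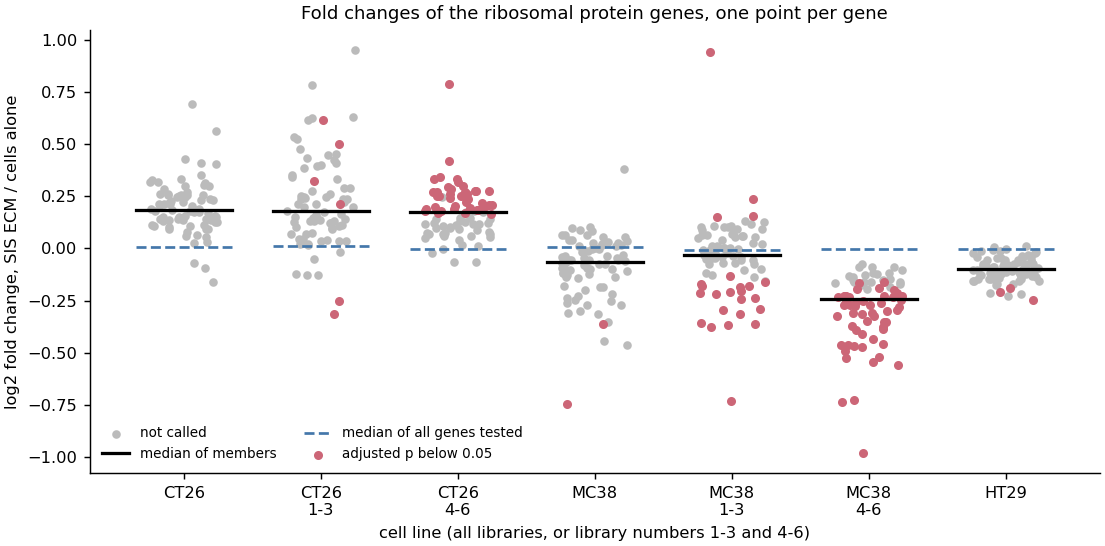
Log2 fold change of each member, SIS ECM over cells alone, in each line and within number ranges 1 to 3 and 4 to 6 (y axis); each point is a gene, red where the adjusted p is below 0.05, with the median of members (black) and of all genes tested (dashed). Members lie above the all-gene median in CT26 4 to 6 (median 0.17) and below it in MC38 4 to 6 (median -0.24).

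**Figure D3:**
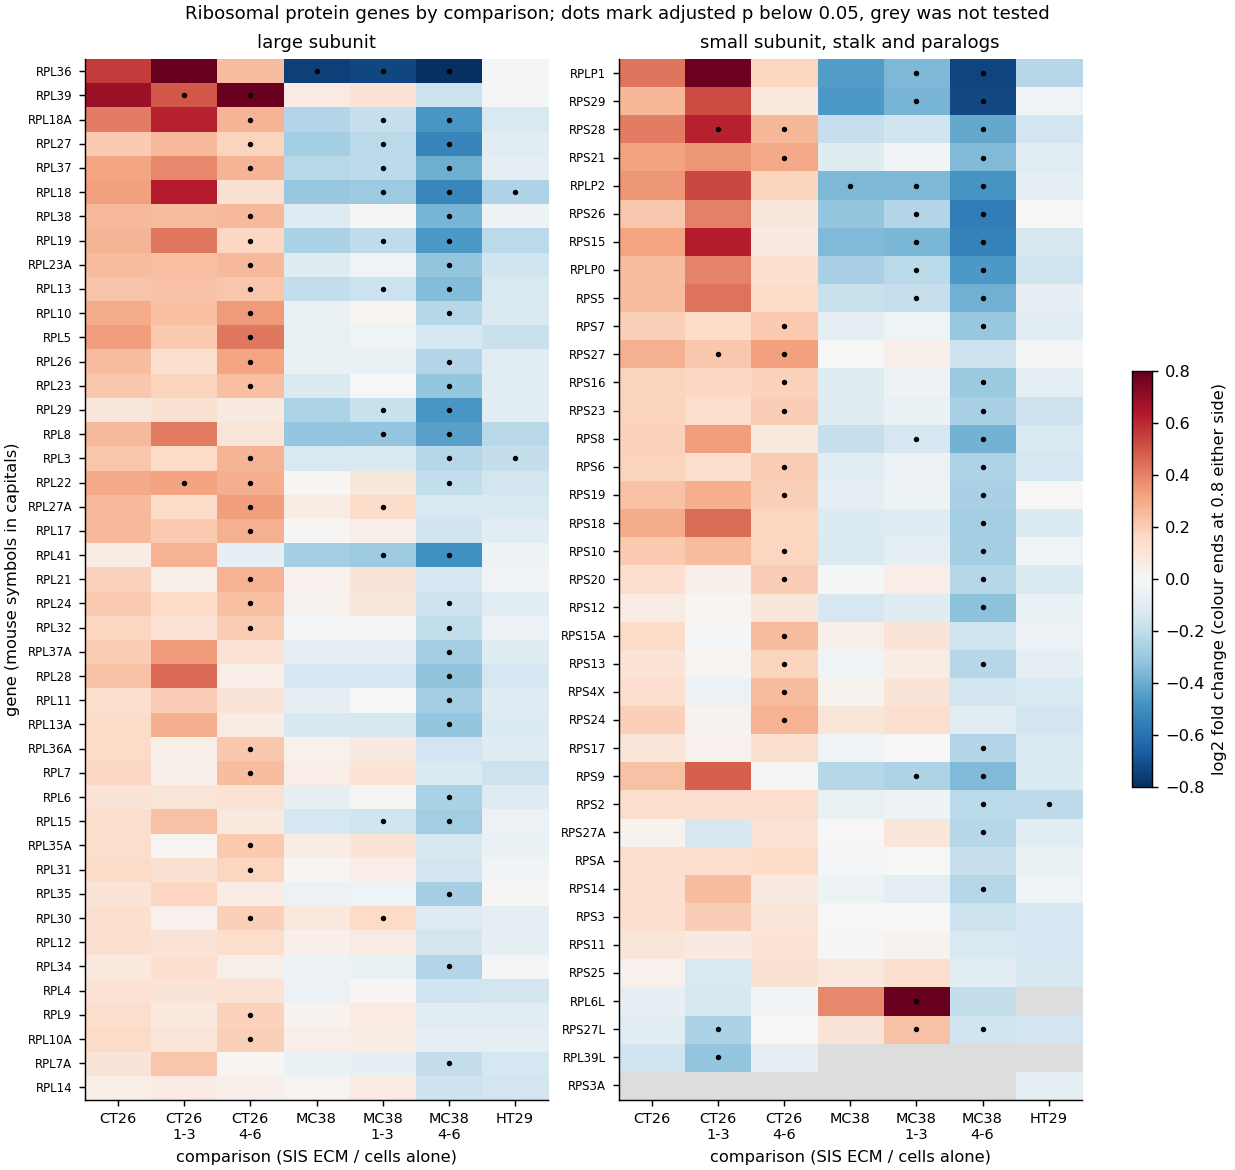
Log2 fold change of every tested member (rows, large subunit at left and other members at right) in each comparison (columns), red higher and blue lower with SIS ECM; dots mark an adjusted p below 0.05 and grey was not tested. Dots mark 40 of 79 members in the CT26 4 to 6 column, all red, and 54 of 78 in the MC38 4 to 6 column, all blue.

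The difference between the mouse lines in their response was tested directly over all 22 libraries. MC38 minus CT26 had a member median of -0.28 against -0.03 over 14080 genes. In edgeR's interaction test 2 of 79 members were lower in MC38 and 0 higher, where 5.4% and 2.87% of all genes were (8.27% together). They were Rpl36, with a difference of -1.32 ± 0.38 on the log2 scale (adjusted p = 0.0313), and Rplp2, with -0.72 ± 0.19 (adjusted p = 0.019). Rplp1 had a difference of -0.88 ± 0.34 and Rpl39 of -0.63 ± 0.34, and neither passed. With the replicate block 32 members passed, all lower in MC38 (12.2% of all genes passed), among them Rplp1 (-0.98) and Rpl39 (-0.69), and with a term for the number range 51 passed, again all lower (26.6%). Rplp2 kept its call without any 1 of the 22 libraries, and Rpl36 lost it without 7 of them (adjusted p from 0.0063 to 0.0725, edgeR).

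**Figure D4:**
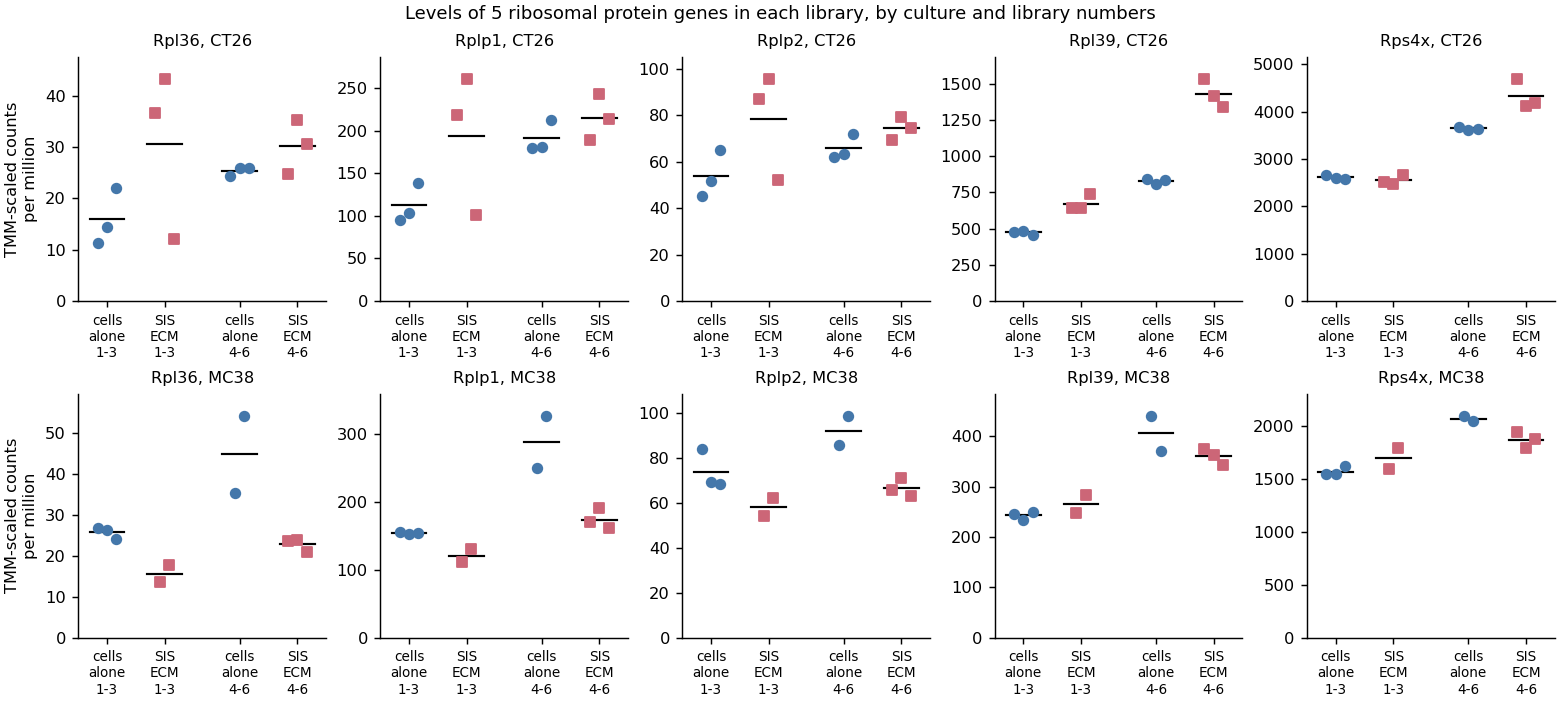
TMM-scaled CPM (y axis) of Rpl36, Rplp1, Rplp2, Rpl39 and Rps4x in each CT26 library (top) and MC38 library (bottom), by culture and library numbers; lines are means. In MC38, Rpl36 lies between 13.6 and 23.9 with SIS ECM and between 24.1 and 54.2 in cells alone, while in CT26 SIS ECM library 3 falls to 12.1 beside 36.6 and 43.2 in libraries 1 and 2.

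The number ranges themselves differed more than the cultures did. With culture in the model, 73 of 79 members were higher in CT26 libraries 4 to 6 than in 1 to 3 and 0 lower, where 26.5% of all genes were higher and 26.3% lower (52.7% changed), and the member median was 0.59. In MC38 75 of 78 were higher and 0 lower, against 19.9% and 20.9% of all genes (40.8%), with a median of 0.42. In CT26 Rpl39 differed by 0.95, Rpl32 by 0.88, Rps3 by 0.70 and Rpsa by 0.65 on the log2 scale, while Rpl36 (0.30), Rplp2 (0.10) and Rps2 (-0.02) did not pass. In MC38 Rplp1 differed by 0.72, Rpl41 by 0.70 and Rpl36 by 0.69, while Rpl5 (0.12) and Rpl4 (0.12) did not pass. Genes for the mitochondrial ribosome shared the direction, with 58 of 78 higher and 1 lower in CT26 (median 0.34) and 41 and 1 in MC38 (median 0.19), as did the mitochondrially encoded genes, with 12 of 12 higher in CT26 (median 1.102) and 11 higher and 1 lower in MC38 (median 0.66).

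Whether the response to SIS ECM differed between the ranges was tested as an interaction within each line. In CT26 no member passed, where 0.244% of all genes did (0.0943% higher, 0.149% lower). At an unadjusted p under 0.05 there were 14, and DESeq2 called 3 (2.63% of all genes). Of 79 members 71 were positive in both ranges, 3 negative in both and 5 of opposite sign. Without SIS ECM library 3 of CT26, 36 members passed, 13 higher and 23 lower in range 4 to 6, where 23.9% of all genes passed. In MC38, 33 of 78 members passed, all lower in range 4 to 6, where 11.1% of all genes were lower and 9.38% higher (20.4% together). The median difference was -0.23. The smallest p-values were those of Rps27l (-0.41, adjusted p = 0.000666 in edgeR), Rpl23 (-0.31) and Rpl22 (-0.29). Rplp1 had a difference of -0.38 (adjusted p = 0.0308), and Rpl36, lower in both ranges, of -0.26 and did not pass. In MC38 0 members were positive in both ranges, 45 negative in both and 33 of opposite sign. The MC38 count was 1 with the replicate block (8.29% of all genes) and 1 without SIS ECM library 3 (10.3%). After an offset for GC and length, an alternative chosen after seeing the data, Rps27l gave -0.11, Rpl23 -0.08 and Rpl22 -0.06, and these did not pass. Rplp1 gave -0.36 with this offset and passed.

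In HT29, 3 ribosomal protein genes fell with SIS ECM. The median of 78 members was -0.10, with all 15207 genes at 0 to 2 decimals, and only 2 of 78 were positive. In edgeR's test 3 fell and 0 rose, where 5.79% of all genes fell and 7.75% rose (13.5% together), so the share of members that passed was below that of all genes, and 19 had an unadjusted p under 0.05. RPL18 stood at 1043 to 1223 CPM in cells alone (median 1133) and 834 to 1131 CPM with SIS ECM (median 893), and fell by 0.25 ± 0.08 (adjusted p = 0.0414, edgeR). RPL3 stood at 1785 to 1967 CPM (median 1861) and 1502 to 1834 CPM (median 1594), and fell by 0.19 ± 0.06 (adjusted p = 0.0381, edgeR). RPS2, a small subunit protein, stood at 2235 to 2698 CPM (median 2468) and 1977 to 2520 CPM (median 2049), and fell by 0.21 ± 0.07 (adjusted p = 0.0453, edgeR). The groups overlapped for each, since SIS ECM libraries 1 and 4 were near the controls (1127 and 1131 CPM for RPL18).

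No other HT29 member passed. RPLP1 stood at 1757 to 2067 CPM in cells alone and 1457 to 1935 CPM with SIS ECM (-0.23 ± 0.07, adjusted p = 0.0509 in edgeR), RPLP0 gave -0.16 ± 0.06 and RPLP2 -0.07 ± 0.06. RPL5 gave -0.18 ± 0.06, RPL22 -0.15 ± 0.06, RPS6 -0.14 ± 0.06, RPS3 -0.14 ± 0.07, RPS4X -0.12 ± 0.06, RPL10 -0.12 ± 0.06, RPL13A -0.11 ± 0.06, RPL11 -0.10 ± 0.05 and RPSA -0.06 ± 0.06, none of them past the threshold. RPL36 and RPL39, which moved most in the mouse lines, gave -0.01 ± 0.08 and -0.01 ± 0.07, RPS27 gave -0.02 ± 0.06 and its paralog RPS27L -0.15 ± 0.07. Each of the 3 calls was lost in 8 of the 12 fits that left out 1 library, with adjusted p from 0.00768 to 0.103 for RPL18. Without SIS ECM library 4, 21 members fell (16.1% of all genes passed), and without library 1, 11 (15.8%). The HT29 response minus the mean of both mouse lines had a member median of -0.17 against -0.01 over 12272 genes. In edgeR's test 0 of 78 members passed, where 5.44% of all genes did (2.58% higher, 2.86% lower). At an unadjusted p under 0.05 there were 3, and DESeq2 (8.08% of all genes) and limma-voom (8.51%) called 0.

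Genes outside the naming rule that also encode ribosomal proteins or their fusions (7 tested in each line) gave 0 calls over all libraries in CT26 and MC38 and 1 in HT29, RPL36AL (-0.20). In MC38 libraries 4 to 6, 3 of these 7 fell: Fau (-0.48), which carries RPS30, Rack1 (-0.26), a scaffold on the small subunit, and Rpl36al (-0.19). Shares of all genes that rose and fell were those given above for each comparison.

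Genes that build the ribosome were counted from a list of 55. Of these 55 genes for ribosomal RNA synthesis and ribosome assembly, 6 fell and 0 rose in CT26 (median -0.15), among them Tsr1 (-0.32 ± 0.07), a late assembly factor of the small subunit, Polr1b (-0.34 ± 0.07), a core subunit of RNA polymerase I, and Utp20 (-0.28 ± 0.06). In MC38 3 rose and 1 fell (median 0.06): Taf1d (0.35), Taf1a (0.34) and Nop56 (0.27), a protein of box C/D snoRNPs, rose and Ubtf (-0.21), the activator of ribosomal DNA transcription, fell. Over all libraries 6.15% of all genes rose and 3.1% fell in CT26, and 3.82% and 5.36% in MC38. Within CT26 libraries 1 to 3, 1 of 55 rose and 21 fell (9.92% and 10.1% of all genes), and in libraries 4 to 6, 2 rose and 12 fell (11.1% and 7.84%). Within MC38 libraries 1 to 3, 25 rose and 4 fell (19.3% and 20.4% of all genes), and in libraries 4 to 6, 4 rose and 4 fell (8.65% and 8.48%). In the interaction between lines 6 of 55 were higher in MC38 and 0 lower, where 2.87% and 5.4% of all genes were. In HT29 3 fell, SBDS (-0.22), which frees the large subunit for joining, NOB1 (-0.19) and RIOK1 (-0.15). The HT29 share of all genes that fell was given above with its members.

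Translation factors whose messages also carry TOP sequences made up a list of 21. In CT26 3 of 21 rose and 0 fell (median 0.10): Tpt1 (0.29 ± 0.09), Eif4b (0.31 ± 0.09) and Eif3f (0.23 ± 0.07). In CT26 libraries 1 to 3, 2 rose and 1 fell, and in libraries 4 to 6, 10 rose and 0 fell. In MC38 1 fell, the elongation factor Eef2 (-0.44 ± 0.08). In MC38 libraries 1 to 3, 6 rose and 3 fell, and in libraries 4 to 6, 0 rose and 7 fell, beside the same shares of all genes as above. In HT29 5 fell and 0 rose (median -0.12), among them EEF1G (-0.22), EIF4B, EIF3H and EIF3L (each -0.19). Host genes of small nucleolar RNAs gave 2 higher of 11 in CT26 (Eif4a2 and Snhg12), 2 higher of 11 in MC38 (Snhg15 and Snhg1) and 3 lower of 15 in HT29 (EPB41L4A-AS1, GAS5 and SNHG8). For these and for the translation factors, shares of all genes over all libraries of a line were those given above for that line.

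Other complexes and gene lists were counted beside the members. For each line, the shares of all genes that rose and fell over all libraries were those given above with its members. Of 78 mitochondrial ribosomal protein genes, 1 rose in CT26 and 1 in MC38, in both lines Mrps18a (0.50 and 0.45), and 8 fell in HT29 (median -0.07). The 31 constitutive proteasome genes gave 0 calls in CT26, 0 in MC38 and 2 lower in HT29, and 23 of 31 were lower in the MC38 interaction between ranges, where 11.1% of all genes were. Among regulators in the mTOR, LARP1 and MYC list of 26 genes, Tsc1 rose in CT26 (0.29), Sesn3 rose (0.29) and Ddit4 (-0.84) and Mxi1 (-0.43) fell in MC38. In HT29 0 of 24 tested passed. Of p53 target genes, Ddb2 and Rrm2b rose and Zmat3 fell in CT26, Ddb2 rose and Cdkn1a and Phlda3 fell in MC38, and PMAIP1 rose and CDKN1A and BTG2 fell in HT29.

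Within the mouse ranges, the members' fold changes went along with the GC content of their transcripts. In CT26 libraries 1 to 3 the Spearman correlation over 78 members was 0.542, and over 10918 protein-coding genes it was 0.455. In MC38 libraries 1 to 3 it was -0.634 over 77 members and -0.556 over 11664 genes. Of the 5 tested members richest in GC, Rpl36, Rpl18, Rps15 and Rpl8 gave 0.95, 0.63, 0.63 and 0.41 in CT26, none of them past the threshold, and fell by 0.73, 0.29, 0.36 and 0.31 in MC38. Rps10, second in GC content, gave 0.25 and -0.08 and passed in neither line, nor did the GC-rich Rps19 (0.29 and -0.04). The median of all genes went from -0.16 in the fifth poorest in GC to 0.25 in the richest in CT26, and from 0.17 to -0.26 in MC38. In libraries 4 to 6 the correlation was -0.32 over members and -0.0916 over genes in CT26, and -0.581 and -0.14 in MC38. These are descriptions across genes that share libraries, and genes are not independent replicates. After an offset for GC and length in each library, an alternative chosen after seeing the data, 41 members rose and 3 fell in CT26 range 4 to 6 (member median 0.10, 25.2% of all genes changed), and 48 fell and 0 rose in MC38 range 4 to 6 (median -0.16, 23.9% of all genes). Whether base composition has a part in the differences was not tested beyond this offset.

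**Figure D5:**
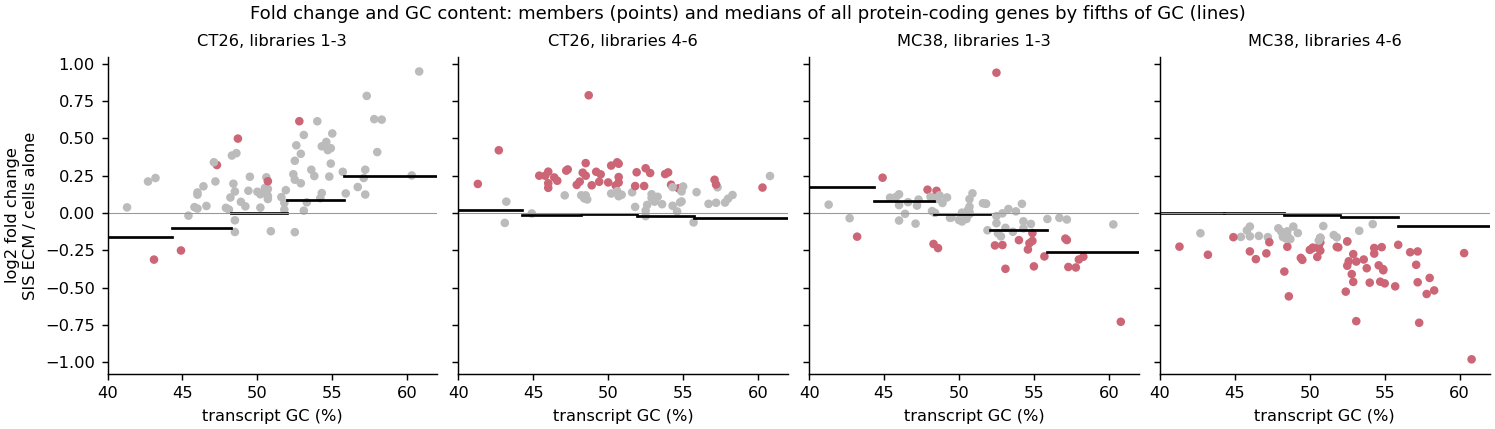
Log2 fold change, SIS ECM over cells alone (y axis), against transcript GC content in percent (x axis) for each member (points, red where the adjusted p is below 0.05), with medians of all protein-coding genes in GC bins of equal gene number (black lines), in each number range of the mouse lines. In libraries 1 to 3 the lines run upward in CT26 (-0.16 to 0.25) and downward in MC38 (0.17 to -0.26). The points go the same way, but in CT26 the member medians lie above the line. They are 0.12 against -0.16 in the fifth poorest in GC and 0.29 against 0.25 in the richest. In libraries 4 to 6 the points lie mostly above the lines in CT26 and below them in MC38.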

How the data were processed

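Per the labels' protocols, spheroids were collected at day 7, RNA was purified with TRIzol and a column kit, and stranded mRNA libraries were sequenced in 1 paired-end pool per species. The submitters' processing notes name the builds mm10 and hg38 and list RSEM 1.3.1, STAR 2.7.0f, cutadapt 1.18 and limma, without the step each served. The sources used here do not give the strand setting.

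For each species, expected counts per gene were deposited without normalisation, and these estimated counts were rounded to whole numbers here. Ribosomal protein genes have many processed pseudogenes of near identical sequence, and how reads were divided between them was not given, so levels of single members are uncertain. Per the file headers, tables of the authors' own comparisons hold p-values, raw and adjusted, a t statistic, which is a score, and the log2 fold change for each line. The 34 per-sample columns in those tables were not used.

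Genes were tested per line, and per number range in mouse, with edgeR 4.0.16 (R 4.3.3): quasi-likelihood F test, two-sided, TMM factors, filterByExpr with a minimum count of 10, and Benjamini-Hochberg adjustment over all genes tested. Members below 0.05 are said to have risen or fallen. CPM values were computed here, and log2 fold changes are given ± SE. Interactions were fitted over both ranges or lines, and HT29 was set against the mouse lines over symbols that match when case is ignored. Scripts were tested on simulated counts.

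Members, gene lists, number ranges and alternatives were chosen with earlier results of these data known, and the gene lists give no independent support. Named were, per line, the 5 highest and 5 lowest members below 0.05, a fixed set with known roles, the 3 most abundant, up to 3 with the smallest interaction p, and up to 4 passing genes per list and line. Rps10, Rps20, Rps24, Rpl8, Rps15, Rps28, Rps29, Rpl18, Rpl30, Rpl27a, Rpl6l and the members named for number ranges and line levels were singled out after their values were seen.

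Alternatives were DESeq2 1.42.0, no filter, library size only, upper-quartile factors, TMM without members, limma-voom (limma 3.58.1) with quantile scaling, a replicate block, a range term, each library left out, and, chosen after seeing the data, an offset for GC and length. Same-numbered libraries deviated together over the whole line in CT26 (correlations of 0.271 to 0.609 over 6 pairs) and MC38 (0.208 to 0.414 over 4 pairs), and in HT29 they did not. Deviations were taken from the culture mean over both ranges, so the difference between ranges enters them. Over the whole line, the closest SIS ECM library had the same number only for cells-alone library 5 in CT26 and libraries 1 and 4 in MC38. No label states that same-numbered libraries are paired. A gene that belongs to one of the gene lists is not reported here.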

Additional observations from a re-analysis of the deposited data

Results flagged for a closer look

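In 158 groups of per-library values, 2 held a library far from the rest, and chance flags about 1 group in 20. Both were CT26 SIS ECM library 3, with Rpl18 at 208 CPM beside 416 to 505 in the other 5 libraries, and Rplp0 at 845 CPM beside 1230 to 1416.

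In MC38 the response to SIS ECM differed between number ranges for 33 members, all lower in libraries 4 to 6, where 20.4% of all genes differed. With the replicate block 1 member passed, and without SIS ECM library 3 also 1. Among the members named, the differences on the log2 scale were -0.406 for Rps27l, -0.381 for Rplp1, -0.328 for Rps27a, -0.311 for Rpl23, -0.301 for Rpl39, -0.293 for Rpl22, -0.281 for Rpl11, -0.258 for Rps4x, -0.255 for Rpl10 and -0.233 for Rpl18. After the GC and length offset, Rplp1, Rpl11 and Rpl18 of these passed and the rest did not. Between the mouse lines 2 members differed, Rpl36 by -1.32 and Rplp2 by -0.72, each lower in MC38, where 8.27% of all genes differed. Rpl36 lost its call without 7 of the 22 libraries.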

How the results depend on the processing

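Counts of called members moved more with the processing than their direction did. Main counts are in brackets. Where no share of all genes is given, here and below, a change in counts cannot be read as particular to members. DESeq2 called 9 in HT29 (3), 11 in CT26 libraries 1 to 3 (6) and 3 in the CT26 interaction of ranges (0). Without a filter the calls were 26 in CT26 1 to 3, 11 in the CT26 interaction and 64 in the MC38 interaction of ranges (33). Scaling by library size alone gave 1 in CT26 (0), 7 in HT29, 1 in the MC38 interaction and 4 between the mouse lines (2), and shifted the median of all genes by -0.14 for the CT26 ranges and by 0.105 for the MC38 interaction. Upper-quartile factors gave 0 in MC38 (2) and TMM without members 1. Limma-voom gave 1 in CT26, 0 in MC38, 7 in HT29 and 2 in the MC38 interaction. With a term for the number range the calls were 35 in CT26, 27 in MC38 and 51 between lines. The cause of these shifts was not tested.

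The replicate block gave 19 calls in CT26, 17 in MC38, 6 in HT29, 1 in CT26 1 to 3, 31 in MC38 4 to 6 (54), 1 in the MC38 interaction and 32 between lines. It moved the other counts by less than 1.5 times. Within ranges, correlations of same-numbered libraries ran from -0.501 to 0.105 in CT26 and from -0.0665 to 0.0144 in MC38. There the closest SIS ECM library had the same number for cells-alone libraries 4 and 6 in CT26 and 3 in MC38.

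After the GC and length offset, chosen after seeing the data, the calls were 7 in CT26, 5 in MC38, 24 in CT26 1 to 3, 1 in the CT26 interaction, 20 in the MC38 interaction and 10 between lines. The offset with the block gave 30, 21, 26 in MC38 4 to 6, 1 in the MC38 interaction and 39 between lines, and with the range term 39 in CT26 and 39 in MC38.

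Member medians that moved by more than the spread between libraries were 0.0979 (voom) and 0.104 (offset with block) in CT26 4 to 6, from 0.173, and -0.176 (voom), -0.163 (offset) and -0.16 (offset with block) in MC38 4 to 6, from -0.241. In the MC38 interaction (-0.233) they were -0.128 (library size), -0.0702 (voom), -0.117 (offset) and -0.0862 (offset with block). Between CT26 ranges (0.587) they were 0.45, 0.459 and 0.257 with library size, voom and the offset, and between MC38 ranges (0.425) 0.238 with the offset. The offset also turned Rpl23 between CT26 ranges (-0.0342) and Rpl9 between MC38 ranges (-0.00682).

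Leaving out each library gave 0 to 1 calls in CT26 (medians 0.108 to 0.253), 0 to 2 in MC38 (-0.126 to 0.0365), 0 to 21 in HT29 (-0.143 to -0.0665), 1 to 54 in CT26 1 to 3 (0.107 to 0.25), 24 to 58 in CT26 4 to 6, 19 to 33 in MC38 1 to 3 (-0.136 to 0.0666), 32 to 62 in MC38 4 to 6 (-0.305 to -0.202), 0 to 36 in the CT26 interaction (-0.053 to 0.0835), 1 to 58 in the MC38 interaction (-0.326 to -0.141), 1 to 7 between lines (-0.356 to -0.177) and 0 for HT29 minus mouse. The MC38 median turned positive without cells-alone library 5 (0.0365) and in range 1 to 3 without SIS ECM library 1 (0.0666), where Rpl5 ran from -0.263 to 0.162. CT26 1 to 3 gave 2, 1, 3 and 3 calls without cells-alone 1, cells-alone 2, SIS ECM 1 and SIS ECM 2, CT26 4 to 6 gave 24 without cells-alone 5, and MC38 4 to 6 gave 32 without SIS ECM 6. In HT29 the calls were 5 without cells-alone 2, 1 without cells-alone 5, and 0 without cells-alone 1, 3 or 4 or SIS ECM 2, 3, 5 or 6. In MC38 they were 0 without any 1 of cells-alone 1, 4 and 5 and SIS ECM 1, 3, 4 and 6, and 1 without cells-alone 2 or SIS ECM 5. In the MC38 interaction they were 13, 11 and 20 without cells-alone 1, 2 and 5 and 58, 1, 18 and 10 without SIS ECM 1, 3, 5 and 6. Between lines they were 7 without CT26 SIS ECM 3, and 1 without CT26 cells-alone 1 or 2, CT26 SIS ECM 1 or 2, or MC38 cells-alone 5, SIS ECM 1 or SIS ECM 3.

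The difference in the median share of counts (percentage points) was 0.252 to 1.64 in CT26, -0.0165 to 0.588 in MC38 and -1.04 to -0.631 in HT29, and in median log2 CPM 0.0285 to 0.435, -0.019 to 0.216 and -0.18 to -0.0779. The MC38 values turned without cells-alone library 2 or 3, which changes the balance of ranges. In MC38 the culture with SIS ECM held more libraries of the higher number range, where shares were higher, than cells alone did. Within that range every SIS ECM library had a lower share than both controls, and within the lower range the cultures overlapped. The positive MC38 values thus cannot be read as a rise with SIS ECM, and the part of this imbalance in them was not tested.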

Other observations

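The mouse lines differed widely in a few members, picked after their values were seen and set side by side with 1 joint scaling of all mouse libraries, as levels with no test. Rpl29, a large subunit protein, ran from 9.53 to 18.6 CPM in CT26 (median 13.2) and from 165 to 345 CPM in MC38 (median 216), 16.4-fold higher by medians. Rps2 ran from 130 to 166 CPM and from 814 to 1265 CPM, 6.52-fold higher in MC38, and Rps18 from 85.5 to 171 CPM and from 559 to 938 CPM, 5.27-fold higher. In the other direction, Rpl32 ran from 955 to 2143 CPM in CT26 and from 395 to 634 CPM in MC38 (3.02-fold), and Rpl39 from 492 to 1624 CPM and from 221 to 408 CPM (2.83-fold). Rpl39l stood at 104 to 205 CPM in CT26 and at most 0.182 CPM in MC38. In all, 24 of 79 members (30.4%) had every CT26 library above every MC38 library, as did 21.5% of 14080 genes, 4 (5.06%) had the reverse, as did 26.8% of genes, and 51 overlapped.

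Reads from Rps2 and from its near-identical annotated pseudogenes may not be told apart in these counts. As CPM of the library total, Rps2-ps10 held 1070 to 1559 CPM in CT26 and 7.09 to 12.2 CPM in MC38. The sum of Rps2 and its 11 named pseudogenes was 1197 to 1730 CPM in CT26 (median 1348) and 858 to 1342 CPM in MC38 (median 1023), so that the lines overlapped in the sum. Rpl3-ps1 held 584 to 1147 CPM in CT26 and 21.6 to 33.5 CPM in MC38. Pseudogenes named after ribosomal proteins took 0.258 to 0.420% of counts in CT26, 0.0506 to 0.0813% in MC38 and 0.151 to 0.191% in HT29.

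In the authors' deposited table Rpl5 was the 1 member called, higher with SIS ECM in CT26 (log2 fold change 0.33, adjusted p-value 0.0133) and Rpl39 missed 0.05 (0.65, adjusted p-value 0.0541). In the authors' deposited table, among 79 members 0 passed in MC38, and 7 of 78 were lower in HT29: RPL18, RPL19, RPL3, RPL5, RPLP1, RPS28 and RPS9. Member medians in the authors' deposited table were 0.17 in CT26, -0.05 in MC38 and -0.05 in HT29.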
